A study of Mus musculus with 16 samples.

Results

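Leukemic bone marrow of Pax5+/- mice was compared with B cell precursors of wild-type (WT) mice on expression arrays. The comparison used the 6 arrays titled as Pax5 leukemia and the 4 titled as WT, chosen by title, out of 16 arrays in the series. The Pax5 leukemias are described as total marrow of mice with 1 inactivated Pax5 allele and precursor B cell acute lymphoblastic leukemia, and the WT arrays as pro-B and pre-B cells of mice without that allele. One label calls the WT samples leukemic cells. Their title, source and genotype do not, and they are taken here as WT. The design text counts 3 WT mice while 4 WT arrays carry replicate labels of their own. The sources used here do not state whether each array stands for 1 mouse, nor the age and strain of the mice, the isolation of the WT cells or any array batches. P-values therefore measure the spread between these arrays. In total marrow, fewer cells of a type and less RNA per cell cannot be told apart. A total of 19938 genes with a probe set of their own were described.

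Pax5 is a transcription factor that commits lymphoid progenitors to the B lineage: it switches on genes of the pre-B cell receptor and of B cell signalling and represses genes of other lineages. Normal B cell precursors divide under interleukin-7, rearrange their immunoglobulin genes with the RAG recombinase, and then slow down and mature under factors such as Ikaros, Aiolos, Irf4 and FoxO1. In mice with 1 working Pax5 allele, leukemias of B cell precursors can arise, and such leukemias often carry changes in the interleukin-7 receptor and JAK-STAT pathway.

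Pearson's r across probe sets (which are not independent replicates) was 0.993 to 0.997 between WT arrays, 0.958 to 0.982 between Pax5 leukemias and 0.939 to 0.963 across the groups. The median standard deviation of a gene was 0.0866 among WT arrays and 0.159 among Pax5 leukemias, on the log2 scale. Sex-linked genes separated the groups: the Y-linked gene Eif2s3y was at 4.58, 4.62, 4.58 and 4.63 on the 4 WT arrays and ran from 4.59 through a median of 9.65 to 9.80 in Pax5 leukemia. Xist, the RNA that silences an X chromosome, was at 12.62, 12.69, 12.52 and 12.51 in WT. Levels in Pax5 leukemia ran from 5.82 through a median of 5.94 to 9.96. Array 2 of Pax5 leukemia, with 4.59 for Eif2s3y and 9.96 for Xist, was the leukemia array without the Y-linked signal, so sex and group are almost the same split. Array 3 of Pax5 leukemia had the lowest Pax5 level (7.52, against 11.14 to 12.21 on the other 5) and the highest level of neutrophil and plasmacytoid dendritic cell markers. For list counts that moved by over 1.5 times without this or another array, the count without it is given. For many lists counts are also given from a fit with the Y-linked pattern as a covariate (called the sex covariate here). With the sex covariate the difference is that of array 2 of Pax5 leukemia from WT, and the other leukemia arrays enter its spread only. Its counts and differences rest on this 1 leukemia array and are no adjusted comparison of all the leukemias. Counts are also given from a fit with a marker level of non-B cells as a covariate (the non-B covariate). Some genes of other lists, such as Itgb3 and Csf1r, enter this level. This level is the mean of the neutrophil, monocyte, marrow macrophage, megakaryocyte, erythroid, T cell, endothelial and stromal lists. It was 6.99 to 7.33 in WT and 7.55 to 8.64 in Pax5 leukemia, so it separates the groups and its effect cannot be fully told apart from theirs.

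A gene was called at an adjusted p under 0.05 in limma's moderated test. Of 19938 genes 5821 (29.2%) were called, 2612 higher (13.1%) and 3209 lower (16.1%) in Pax5 leukemia. The balance turned with the scaling: median centring gave 2791 higher and 2464 lower, and cyclic loess 3032 and 2594. Among the called genes 1062 differed at least 2-fold, 621 higher (3.11%) and 441 lower (2.21%). The median log2 difference of all genes was -0.05. Dim denotes a group mean under 6.97, the median level of probe sets with a gene name. Differences of dim genes are less certain in size. Genes were grouped in 69 lists. The count of each list is to be read against these shares, 13.1% higher and 16.1% lower, also where they are not repeated. A list with counts near these shares does not stand out from all genes.

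**Figure D1:**
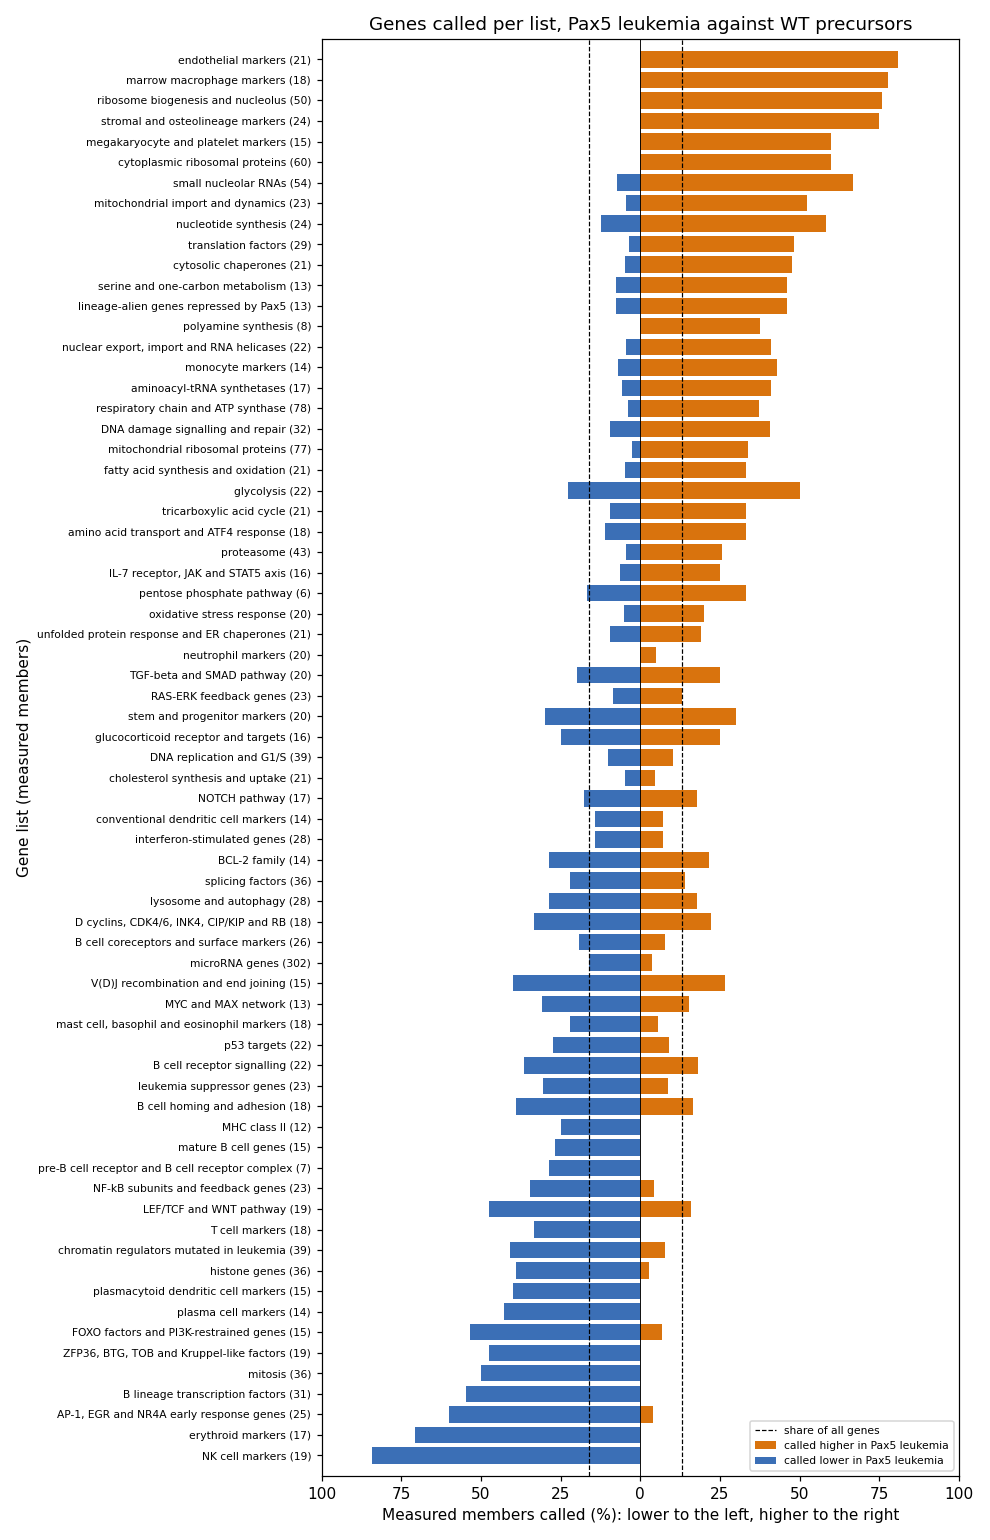
Percent of each list's measured members called higher (bars to the right) or lower (bars to the left) in Pax5 leukemia than in WT precursors, with the share of all 19938 genes as dashed lines (13.1% higher, 16.1% lower). Endothelial markers (17 of 21) and ribosome biogenesis genes (38 of 50) have among the largest shares called higher, NK cell markers (16 of 19) the largest share called lower, and B lineage transcription factors (17 of 31 lower) have no member called higher.

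Transcription factors of the B lineage were lower in Pax5 leukemia. Of 31 measured, 17 fell, none rose and 14 did not pass, against 16.1% of all genes lower, and the median log2 difference of the list was -0.88 against -0.05 for all genes. Ikzf3, which encodes Aiolos, was at 11.69, 11.63, 11.86 and 11.92 in WT. In the leukemias it ran from 6.34 through a median of 8.55 to 9.19. Every leukemia array lay under every WT array (log2 difference -3.74, SE 0.59, adjusted p = 0.0013). Bach2, a repressor that guards the pre-B cell checkpoint, was at 12.22, 12.13, 12.32 and 12.40 in WT. The 6 leukemias ran from 8.29 through a median of 8.99 to 10.40. The arrays did not overlap, and Bach2 fell 8.38-fold (-3.07, SE 0.36, adjusted p = 0.00027). Irf4, which limits pre-B cell division, was at 11.52, 11.54, 11.74 and 11.66 in WT. Pax5 leukemias ran from 8.38 through a median of 8.73 to 10.16, again without overlap (-2.67, SE 0.31, adjusted p = 0.000251). Spib, an ETS factor of B cells and plasmacytoid dendritic cells, was among the brightest of the list in WT, at 13.10, 12.98, 13.13 and 13.13, and ran from 10.94 through a median of 11.46 to 11.77 in Pax5 leukemia (-1.65, SE 0.15, adjusted p = 6.21e-05).

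Smaller decreases with a narrow spread were seen for Tcf12 (-0.88, SE 0.06, adjusted p = 2.29e-05), which encodes the E protein HEB, for the ETS factor Fli1 (-0.72, SE 0.06, adjusted p = 3.26e-05) and for Ikzf2, which encodes Helios (-0.88, SE 0.08, adjusted p = 9.4e-05, dim in Pax5 leukemia). Foxo1 (-1.70, SE 0.34, adjusted p = 0.00488), which drives RAG expression, and Tcf3 (-1.06, SE 0.23, adjusted p = 0.00794), which encodes E2A, also fell. Pax5 itself was at 11.90, 11.85, 11.98 and 12.12 in WT. The leukemia arrays ran from 7.52 through a median of 11.53 to 12.21. Its arrays overlapped, with 1 leukemia array low and the others close to WT, and the difference did not pass (-0.98, SE 0.80, adjusted p = 0.383). Ebf1, the factor upstream of Pax5, lay below every WT array on each leukemia array, at 12.52, 12.58, 12.62 and 12.63 against a range from 9.46 through a median of 12.03 to 12.28, yet did not pass either (-1.23, SE 0.56, adjusted p = 0.122). Under the non-B covariate 5 members of the list were called lower and with the sex covariate 8, and none was called higher in either fit. Without array 3 of Pax5 leukemia 18 were called lower.

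**Figure D2:**
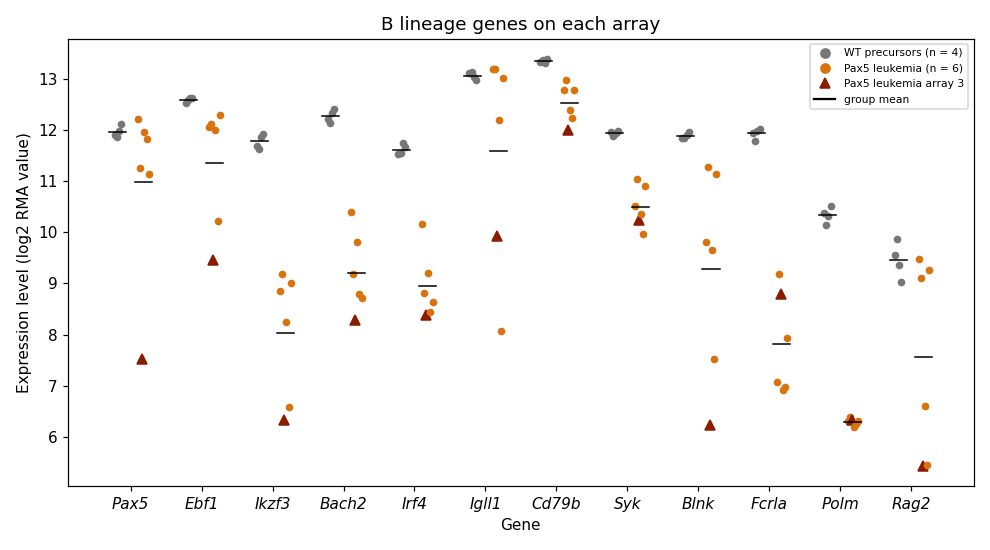
Log2 level of 12 B lineage genes on each array, with WT precursors as grey circles (n = 4) and Pax5 leukemias as orange circles (n = 6; array 3 as a filled triangle), and the group mean as a line. Polm, Bach2 and Fcrla are below all WT arrays on all 6 leukemia arrays, whereas Pax5, Igll1 and Rag2 overlap with WT.

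Genes of the pre-B cell receptor itself varied widely among the leukemias. Igll1, which encodes the surrogate light chain protein lambda 5, was at 13.11, 13.12, 13.03 and 12.98 in WT. Levels in Pax5 leukemia ran from 8.07 through a median of 12.60 to 13.19 (-1.47, SE 0.98, adjusted p = 0.282). Vpreb1, its partner in the surrogate light chain (-0.52, SE 0.76, adjusted p = 0.626), and Cd79a, a signalling chain of the receptor (-0.97, SE 0.63, adjusted p = 0.272), overlapped between the groups in the same way. Of the 7 genes of the complex, 2 fell (1 lower without any single WT array or array 2, 3 or 5 of Pax5 leukemia) and none rose. Cd79b, the second signalling chain, fell with no overlap (-0.82, SE 0.17, adjusted p = 0.00685), with levels of 13.33, 13.36, 13.30 and 13.38 in WT and a range from 12.00 through a median of 12.58 to 12.97 in Pax5 leukemia. The other was Ighm, the mu heavy chain (-1.58, SE 0.51, adjusted p = 0.0419), whose call ended without any single WT array or array 2, 3 or 5 of Pax5 leukemia (adjusted p from 0.0545 to 0.0979; over all alternatives 0.00302 to 0.622). Neither covariate fit called a member of this list.

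In the signalling cascade below the receptor, 8 of 22 genes fell and 4 rose (2 higher without array 2, 3 or 4 of WT). Over all genes 16.1% were lower and 13.1% higher. Syk, the kinase that starts the cascade, was at 11.96, 11.88, 11.94 and 11.97 in WT. In the leukemias it ran from 9.97 through a median of 10.43 to 11.04, below WT on all 6 arrays (-1.44, SE 0.19, adjusted p = 0.000531). Pik3ap1, an adaptor that links the receptor to PI3K, was at 12.17, 11.91, 12.07 and 12.04 in WT. The 6 leukemias ran from 9.63 through a median of 10.27 to 11.10 (-1.74, SE 0.23, adjusted p = 0.000507). Dok3, an inhibitory adaptor, fell as well (-1.83, SE 0.33, adjusted p = 0.00283), as did the kinase gene Prkcb (-0.86, SE 0.16, adjusted p = 0.00324) and Dapp1 (-0.63, SE 0.07, adjusted p = 0.000219). Blnk, the adaptor that acts as a tumor suppressor in pre-B cells, had the lowest difference of the list without passing. It was at 11.84, 11.84, 11.90 and 11.96 in WT. Pax5 leukemias ran from 6.23 through a median of 9.74 to 11.28, with all arrays below WT but a wide spread (-2.61, SE 0.93, adjusted p = 0.059). Blnk passed without array 2 or 6 of Pax5 leukemia (adjusted p from 0.0344 to 0.0391; over all alternatives 0.0104 to 0.812). Btk, the kinase downstream of Syk, was close to WT (-0.17, SE 0.12, adjusted p = 0.314). With the non-B and the sex covariate 3 and 4 members were called lower.

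Among surface markers and coreceptors, 5 of 26 fell and 2 rose, against 16.1% of all genes lower and 13.1% higher. Fcrla, an intracellular Fc receptor-like protein of B cells, was at 11.94, 11.79, 11.97 and 12.02 in WT. The leukemia arrays ran from 6.91 through a median of 7.50 to 9.19 (-4.12, SE 0.46, adjusted p = 0.000206). Enpep, the aminopeptidase known as the pre-B marker BP-1, was at 8.68, 9.67, 9.45 and 8.53 in WT. Levels in Pax5 leukemia ran from 5.66 through a median of 5.88 to 6.94, where it was dim (-3.07, SE 0.30, adjusted p = 9.4e-05). Cd2, an adhesion receptor found on lymphocytes, fell 14.4-fold (-3.85, SE 0.31, adjusted p = 3.47e-05), and the coreceptor gene Cd72 fell by 4.34 (SE 0.72, adjusted p = 0.00178). Cd81, a tetraspanin of the cell surface, rose, from 11.35, 11.36, 11.36 and 11.28 in WT to a range from 11.84 through a median of 12.22 to 12.43 in Pax5 leukemia (0.86, SE 0.10, adjusted p = 0.000293). Spn (CD43), a surface protein of early precursors, rose by 0.42 (SE 0.08, adjusted p = 0.00494). Cd22, an inhibitory coreceptor, overlapped (0.39, SE 0.59, adjusted p = 0.643). The sex and the non-B covariate left 3 members lower and 1 higher each.

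The recombination machinery split between its parts. Polm, which encodes polymerase mu, a DNA polymerase of end joining, was at 10.37, 10.14, 10.31 and 10.52 in WT. In the leukemias it ran from 6.19 through a median of 6.31 to 6.39, where it was dim on every array (-4.04, SE 0.07, adjusted p = 2.67e-09). Its spread was small in both groups, and with the non-B covariate the log2 difference was -4.01. With the sex covariate, which sets array 2 of Pax5 leukemia against WT, it was -3.94. Dntt, the terminal transferase that adds bases at junctions, fell more variably, from 10.81, 10.77, 10.62 and 10.24 to a range from 4.95 through a median of 7.34 to 9.57 (-3.51, SE 0.85, adjusted p = 0.0122), and so did Lig4, the ligase of end joining (-2.32, SE 0.37, adjusted p = 0.00152). Rag1 and Rag2, the recombinase subunits, did not pass. Rag1 was at 11.32, 11.64, 11.25 and 11.24 in WT. The 6 leukemias ran from 5.65 through a median of 8.96 to 11.22, all below WT (-2.81, SE 1.07, adjusted p = 0.0754), and Rag1 passed without array 6 of Pax5 leukemia (adjusted p = 0.0331; over all alternatives 0.014 to 0.754). Rag2 overlapped with WT (-1.89, SE 0.90, adjusted p = 0.141). In contrast, Xrcc5, which encodes the Ku80 subunit, rose (1.30, SE 0.26, adjusted p = 0.00468), and so did the polymerase gene Poll (0.86, SE 0.19, adjusted p = 0.00758, dim in WT) and the kinase gene Prkdc (0.68, SE 0.14, adjusted p = 0.0061). In all, 6 of 15 fell and 4 rose, against 16.1% of all genes lower and 13.1% higher. In the non-B covariate fit 3 were called lower and 1 higher, and with the sex covariate 2 and 1.

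Of the interleukin-7 receptor and STAT5 axis, the receptor did not pass while the feedback genes Socs2 and Cish rose. Il7r, the receptor chain, was at 12.73, 12.66, 12.70 and 12.73 in WT. Pax5 leukemias ran from 10.77 through a median of 12.25 to 12.72 (-0.69, SE 0.36, adjusted p = 0.174), and the transcription factor gene Stat5a did not pass (-0.02, SE 0.15, adjusted p = 0.928). Socs2, a cytokine signalling suppressor induced by STAT5, was at 9.83, 10.10, 9.92 and 9.43 in WT. The leukemia arrays ran from 11.69 through a median of 11.92 to 12.39. All 6 leukemia arrays exceeded all WT arrays (2.18, SE 0.17, adjusted p = 3.15e-05). Cish, another STAT5-induced suppressor, was at 7.07, 6.99, 6.97 and 7.01 in WT. Levels in Pax5 leukemia ran from 8.42 through a median of 9.36 to 9.98 (2.21, SE 0.31, adjusted p = 0.000758). Osm, a cytokine gene also induced by STAT5, rose less (0.84, SE 0.13, adjusted p = 0.00143). Of 16 measured, 4 rose, 1 fell and 11 did not pass, with a median of 0.03. Over all genes 13.1% were higher and 16.1% lower. With the non-B covariate 1 member was called higher (Socs2, 2.22, adjusted p = 0.00827; over all alternatives 7.03e-06 to 0.00843) and with the sex covariate 3.

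Survival genes moved in both directions, with 3 of 14 BCL-2 family genes higher and 4 lower, against 13.1% and 16.1% of all genes. Bcl2l1, which encodes the survival protein BCL-xL, was at 10.02, 10.01, 10.09 and 10.09 in WT. In the leukemias it ran from 7.88 through a median of 8.30 to 9.16, and fell without overlap (-1.71, SE 0.22, adjusted p = 0.000427). Mcl1, a survival gene that early B cells need, fell with a small spread, from 11.13, 11.09, 11.07 and 11.06 to a range from 10.25 through a median of 10.35 to 10.47 (-0.74, SE 0.05, adjusted p = 2.36e-05). The death-promoting gene Bmf fell (-1.35, SE 0.22, adjusted p = 0.00158), and the effectors Bak1 (0.59, SE 0.12, adjusted p = 0.00523) and Bok (1.13, SE 0.28, adjusted p = 0.0142) rose. Bcl2 (0.37, SE 0.33, adjusted p = 0.414) and Bcl2l11, which encodes BIM (0.14, SE 0.29, adjusted p = 0.738), did not pass. The non-B covariate left 2 members lower and none higher, and the sex covariate 2 and 2.

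FOXO factors and genes that PI3K signalling holds down fell in 8 of 15 and rose in 1. Klf2, a factor of lymphocyte quiescence and trafficking, was at 9.59, 9.41, 9.48 and 9.60 in WT. The 6 leukemias ran from 7.36 through a median of 7.72 to 8.18 (-1.77, SE 0.14, adjusted p = 2.99e-05). Ccng2, a cyclin of resting cells, was at 10.79, 10.88, 10.82 and 10.84 in WT. Pax5 leukemias ran from 8.86 through a median of 9.18 to 9.40 (-1.70, SE 0.10, adjusted p = 1.18e-05). S1pr1, the receptor that guides lymphocytes out of marrow, fell with a wide spread (-1.89, SE 0.48, adjusted p = 0.0148). Ccr7, a homing receptor of lymphocytes, fell as well (-1.15, SE 0.24, adjusted p = 0.00671). With the non-B covariate 4 members of the FOXO list were called lower and none higher. The list of homing and adhesion genes had 7 of 18 lower and 3 higher, and its count of lower members was 3 without any single WT array and 4 without array 5 of Pax5 leukemia. With the non-B covariate 2 homing genes were called lower and none higher, with a median of -0.41 against 0.16. With the sex covariate, which rests on array 2 of Pax5 leukemia, the median was 0.09. Integrin beta 3 (Itgb3), which platelets also carry, rose by 1.80 (SE 0.45, adjusted p = 0.0145), and Icam1, a ligand of leukocyte integrins, by 0.79 (SE 0.15, adjusted p = 0.004). Under the non-B covariate, Itgb3 was at -0.27 and was not called (adjusted p = 0.728; over all alternatives 0.00113 to 0.728). That covariate holds Itgb3 itself as a megakaryocyte marker, so it cannot test the Itgb3 difference.

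Of 13 genes of other lineages that Pax5 is known to repress, 6 rose and 1 fell, against 13.1% of all genes higher. Emb, a surface glycoprotein, was at 9.73, 9.70, 9.13 and 9.01 in WT. The leukemia arrays ran from 10.36 through a median of 11.06 to 11.80 (1.76, SE 0.28, adjusted p = 0.00149). Csf1r, the receptor of macrophage colony-stimulating factor, rose from a dim level, 6.97, 6.78, 6.66 and 6.60, to a range from 8.12 through a median of 8.50 to 9.68 (1.95, SE 0.29, adjusted p = 0.00101). Macrophage markers rose in the same arrays, as given below, and their part in the Csf1r difference was not tested. Ccl3, a chemokine gene, moved the other way (-2.70, SE 0.59, adjusted p = 0.00772), from 10.31, 10.06, 9.74 and 9.71 in WT to a range from 6.14 through a median of 6.78 to 9.06. Flt3, a receptor of early progenitors, rose by 1.64 (SE 0.49, adjusted p = 0.0308), a call that ended without any single WT array or array 2, 4 or 5 of Pax5 leukemia (adjusted p from 0.0535 to 0.0833; over all alternatives 0.00139 to 0.682). The count of higher members was 3 without array 2 or 3 of WT (2 lower without array 3 of Pax5 leukemia). In the non-B covariate fit none was called, and the median of the list was 0.58 against 0.62. That covariate holds Csf1r itself as a monocyte marker, but not Emb or Flt3. With the sex covariate, which rests on array 2 of Pax5 leukemia, the median was 0.24.

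Of 17 NOTCH pathway genes 3 rose and 3 fell, and of 19 WNT pathway genes 3 rose and 9 fell. Over all genes 13.1% were higher and 16.1% lower. Dtx1, a NOTCH target of lymphocytes, fell (-1.37, SE 0.21, adjusted p = 0.0011), and its relative Dtx4 rose (1.69, SE 0.20, adjusted p = 0.000296, dim in WT). Notch1, the receptor, did not pass (0.62, SE 0.27, adjusted p = 0.111), while Notch3 rose (1.03, SE 0.13, adjusted p = 0.000343). Lgr5, a receptor that enhances WNT signals, was at 10.04, 10.47, 10.23 and 10.20 in WT. Levels in Pax5 leukemia ran from 5.57 through a median of 5.78 to 8.76. It was dim on 5 of 6 leukemia arrays and fell (SE of the log2 difference 0.58, adjusted p = 0.000807). Lrp5, a WNT coreceptor, rose (1.35, SE 0.24, adjusted p = 0.00286), and beta-catenin (Ctnnb1) did not pass (0.03, SE 0.04, adjusted p = 0.684). The count of lower WNT genes was 5 without array 1 or 2 of WT. With the non-B covariate 1 WNT gene was called higher and none lower, with a median of -0.11 against -0.20. Of the NOTCH genes that fit called 1 each way. With the sex covariate, which rests on array 2 of Pax5 leukemia, the WNT median was -0.29.

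MHC class II genes and mature B cell genes fell in 3 of 12 (5 lower without array 5 of Pax5 leukemia) and in 4 of 15 (2 lower without array 2 of WT), and none rose. Over all genes 16.1% were lower and 13.1% higher. The class II members called were the regulators Rfxank (-0.68, SE 0.11, adjusted p = 0.0017), Rfxap (-0.33, SE 0.06, adjusted p = 0.00322) and Rfx5 (-0.53, SE 0.14, adjusted p = 0.0173), and the call of Rfx5 ended without array 1 of WT (adjusted p = 0.0546; over all alternatives 0.00182 to 1). The class II genes themselves overlapped, for example the invariant chain gene Cd74 (-0.15, SE 0.44, adjusted p = 0.817). Among mature B cell genes Fcmr, an IgM receptor, fell from 9.84, 9.62, 9.69 and 9.95 to a range from 5.97 through a median of 6.61 to 8.81, dim in Pax5 leukemia (-2.96, SE 0.48, adjusted p = 0.00149). Cr2 and Fcer2a, which mark mature B cells, were dim in both groups by their means (5.34 and 6.02 in WT). Fcer2a was at 10.32 on array 5 of Pax5 leukemia and at 5.48 to 6.41 on the other leukemia arrays. With the non-B covariate no member of the class II list was called, and 1 mature B cell gene was called lower.

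Myc was higher in Pax5 leukemia, and genes of ribosome production were higher with it. Myc was at 9.67, 9.87, 9.65 and 9.64 in WT. In the leukemias it ran from 10.88 through a median of 11.71 to 12.04, with no overlap (1.93, SE 0.20, adjusted p = 0.000136). Of the 13 genes of its network 2 rose (1 higher without any single WT array or array 2, 5 or 6 of Pax5 leukemia) and 4 fell, the latter including the MAX partners Mxd4 (-0.67, SE 0.12, adjusted p = 0.00214) and Mxi1 (-0.57, SE 0.09, adjusted p = 0.00125), which oppose MYC on DNA. Mycn did not pass (0.82, SE 0.33, adjusted p = 0.0898) but did without array 1 of Pax5 leukemia (adjusted p = 0.0349; over all alternatives 0.0242 to 1). Of 50 genes of ribosome biogenesis and the nucleolus, 38 rose, none fell and 12 did not pass, with a median log2 difference of 0.66, and 11 rose at least 2-fold. Arrays of the groups did not overlap for 33 of them, against 11.6% of all genes. Rrp1b, a nucleolar protein of ribosomal RNA processing, was at 7.87, 7.94, 7.96 and 7.87 in WT. The 6 leukemias ran from 9.17 through a median of 9.29 to 9.80 (1.51, SE 0.13, adjusted p = 4.1e-05). Mybbp1a, a nucleolar transcription regulator, was at 9.29, 9.15, 9.22 and 9.19 in WT. Pax5 leukemias ran from 10.19 through a median of 10.57 to 10.85 (1.37, SE 0.12, adjusted p = 4.84e-05). The core nucleolar proteins nucleolin (Ncl, 0.73, SE 0.08) and fibrillarin (Fbl, 0.74, SE 0.06) rose less, and the same held for Taf1d, a subunit of the RNA polymerase I factor SL1 (0.85, SE 0.06). With the non-B covariate 12 members were called higher and none lower.

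MYC with MAX binds the sequence CACGTG, so the 250 bases upstream of the listed genes were searched for it (the motif reads the same on both strands). Sequences are RefSeq promoters of the build GRCm38.p6, and the stretches shown are the last 100 bases before the start (of 2 motifs upstream of Rrn3, 1 lies in the stretch shown), in lower case with the motif in capitals. Shown are the called members with the smallest p that hold the motif, Rrn3 (an RNA polymerase I initiation factor, chr16:13780599-13780698, plus strand) and Nop2 (a ribosomal RNA methyltransferase, chr6:125131783-125131882, plus strand), and the called member with the smallest p that does not, Taf1d (chr9:15306114-15306213, plus strand).
Rrn3: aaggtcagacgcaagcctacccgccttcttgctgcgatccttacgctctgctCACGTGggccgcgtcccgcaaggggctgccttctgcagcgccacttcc
Nop2: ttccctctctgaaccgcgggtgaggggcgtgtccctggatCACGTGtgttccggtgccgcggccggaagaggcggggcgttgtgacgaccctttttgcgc
Taf1d: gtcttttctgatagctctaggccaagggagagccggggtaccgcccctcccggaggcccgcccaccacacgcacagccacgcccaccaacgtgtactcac
The motif was found upstream of 4 of the 46 listed genes with a promoter entry (8.7%) and of 1266 of 15614 tested genes with one (8.11%). Among the called members it was 2 of 35 (5.71%), among the members not called 2 of 11 (18.2%), and among all genes called higher 220 of 2052 (10.7%).

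Small nucleolar RNAs (snoRNAs), which guide chemical modification of ribosomal RNA and are often cut from introns of ribosome-related genes, rose in 36 of 54 and fell in 4, with a median of 0.68, and 18 rose at least 2-fold. Snord47 was at 8.01, 8.87, 8.42 and 8.39 in WT. The leukemia arrays ran from 10.39 through a median of 10.70 to 10.79, above WT on every array (2.22, SE 0.15, adjusted p = 1.54e-05). Snord53 (1.46, SE 0.12, adjusted p = 3.47e-05) and Snora7a (1.08, SE 0.10, adjusted p = 7.19e-05) rose as well, and Snord87 rose from a dim level (2.46, SE 0.24, adjusted p = 0.000109). The arrays cannot tell a processed snoRNA from the intron that holds it. Under the non-B covariate 14 were called higher and 1 lower, with the sex covariate 31 and 3.

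Ribosomal proteins had smaller differences. Of 60 genes of the cytoplasmic ribosome 36 rose and none fell, with a median of 0.26. Rpl24 was at 10.70, 11.06, 10.57 and 10.46 in WT. Levels in Pax5 leukemia ran from 11.63 through a median of 11.79 to 11.94, the largest difference of the list (1.08, SE 0.12, adjusted p = 0.000181), while Rps6 stayed at 13.38, 13.46, 13.41 and 13.40 in WT against a range from 13.37 through a median of 13.38 to 13.44 (-0.02, SE 0.04, adjusted p = 0.681). Many of these genes have near-identical pseudogenes, whose signal the probes may share. Of 77 genes of the mitochondrial ribosome 26 rose and 2 fell (4 lower without array 2 of Pax5 leukemia; median 0.22), with 17 higher without array 1 or 4 of WT. Mrps34 rose (0.87, SE 0.11, adjusted p = 0.000482) and Mrpl49 fell (-0.97, SE 0.12, adjusted p = 0.000376). Translation factors rose in 14 of 29 and fell in 1 (9 higher without array 1 of WT, 2 lower without array 2 of Pax5 leukemia), with higher levels of the cap-binding protein gene Eif4e (0.46, SE 0.11, adjusted p = 0.0131) and the elongation factor gene Eef1b2 (0.62, SE 0.08, adjusted p = 0.00036). Aminoacyl-tRNA synthetases rose in 7 of 17 and fell in 1, and 3 to 4 rose without array 1, 3 or 4 of WT. With the non-B covariate 6 cytoplasmic and 1 mitochondrial ribosomal protein genes, 1 translation factor and 0 tRNA synthetase genes were called higher, and with the sex covariate 20, 23, 10 and 3.

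**Figure D3:**
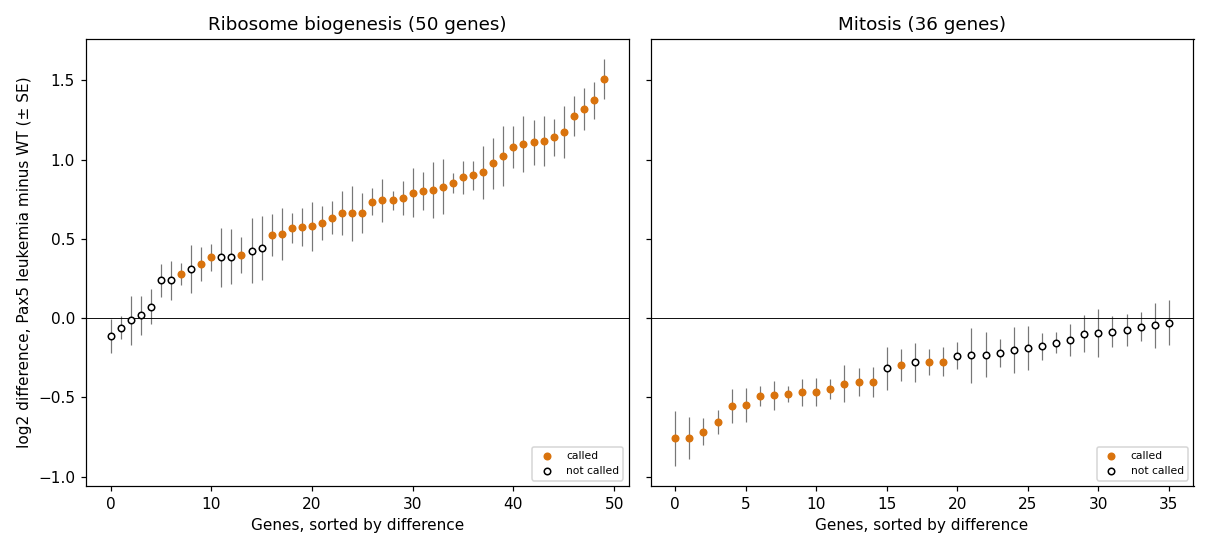
Log2 difference between Pax5 leukemia and WT precursors for each measured gene of ribosome biogenesis (50 genes) and mitosis (36 genes), sorted, with the standard error as a bar and called genes filled (6 against 4 arrays). Ribosome biogenesis genes range from -0.11 up to 1.51 for Rrp1b, and mitosis genes from -0.03 down to -0.76.

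Genes of nucleotide and one-carbon metabolism were mostly higher where they passed. Of 24 genes of nucleotide synthesis 14 rose and 3 fell (median 0.38). Cad, the enzyme that starts pyrimidine synthesis, was at 8.60, 8.53, 8.59 and 8.48 in WT. In the leukemias it ran from 9.57 through a median of 9.87 to 10.11 (1.31, SE 0.09, adjusted p = 2.11e-05). Atic, which completes purine synthesis, was at 10.08, 10.12, 10.09 and 10.14 in WT. The 6 leukemias ran from 10.89 through a median of 11.21 to 11.43 (1.08, SE 0.09, adjusted p = 4.06e-05), and the purine enzymes Adsl (1.16, SE 0.16), Gart (0.88, SE 0.07) and Pfas (0.88, SE 0.08) rose with it. Rrm2, the ribonucleotide reductase subunit of S phase, fell (-1.18, SE 0.15, adjusted p = 0.000406). In serine and one-carbon metabolism 6 of 13 rose and 1 fell (2 lower without array 1 of Pax5 leukemia): the serine hydroxymethyltransferases Shmt2 (1.28, SE 0.13, adjusted p = 0.000112) and Shmt1 (1.14, SE 0.10, adjusted p = 4.68e-05) and the folate enzyme Mthfd1 (1.21, SE 0.18, adjusted p = 0.000951) were higher, and the glutamine transporter gene Slc1a5 was lower (-2.17, SE 0.40, adjusted p = 0.003). In the non-B covariate fit the counts were 5 higher for nucleotide synthesis and 2 for one-carbon metabolism, with none lower.

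Glycolysis genes rose in 11 of 22 and fell in 5 (median 0.41). With the non-B covariate 3 were called higher and none lower, and the median was 0.01. The main counts of this paragraph stand against 13.1% of all genes higher and 16.1% lower. Pdk1, a kinase that inhibits pyruvate dehydrogenase, was at 7.76, 8.07, 7.77 and 7.65 in WT. Pax5 leukemias ran from 8.85 through a median of 9.72 to 9.86 (1.76, SE 0.19, adjusted p = 0.000161), and hexokinase 2 (Hk2, 1.01, SE 0.11, adjusted p = 0.000139) and aldolase (Aldoa, 0.96, SE 0.09, adjusted p = 9.83e-05) rose. The count of lower members was 3 without array 2, 3 or 4 of WT. Fatty acid genes rose in 7 of 21 and fell in 1: fatty acid synthase (Fasn) was at 9.17, 9.23, 9.26 and 9.25 in WT. The leukemia arrays ran from 10.02 through a median of 10.58 to 10.91 (1.33, SE 0.14, adjusted p = 0.000136), and acetyl-CoA carboxylase (Acaca) rose (1.12, SE 0.11, adjusted p = 9.98e-05). Ppargc1a, a coactivator of mitochondrial genes, fell but was dim in both groups (-1.50, SE 0.05, adjusted p = 2.09e-07). With the non-B covariate 4 fatty acid genes were called higher and 1 lower. Cholesterol genes changed in 2 of 21, 1 each way (2 to 4 higher without array 1, 3, 4, 5 or 6 of Pax5 leukemia, and 2 to 3 lower without array 1 or 3 of Pax5 leukemia). The polyamine enzyme spermidine synthase (Srm) rose (1.46, SE 0.14, adjusted p = 9.21e-05), 1 of 3 higher among 8 genes of that pathway (1 higher without array 4 of WT), and Odc1, its rate-limiting enzyme, did not pass (-0.03, SE 0.20, adjusted p = 0.909). Genes of the pentose phosphate pathway rose in 2 of 6 and fell in 1, and those of amino acid transport and the ATF4 response rose in 6 of 18 and fell in 2 (1 lower without any single WT array or array 4 or 5 of Pax5 leukemia).

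Of 23 genes of mitochondrial import and dynamics 12 rose and 1 fell (median 0.36), led by the small Tim proteins Timm8a1 (1.48, SE 0.18, adjusted p = 0.000298, dim in WT) and Timm9 (1.02, SE 0.14, adjusted p = 0.000533). Of 21 cytosolic and mitochondrial chaperones 10 rose and 1 fell (2 lower without array 1 of WT or array 1 or 5 of Pax5 leukemia): Hspa9, the mitochondrial HSP70, was at 10.47, 10.51, 10.41 and 10.30 in WT and ran from 11.28 through a median of 11.49 to 11.81 in Pax5 leukemia (1.08, SE 0.09, adjusted p = 4.63e-05), and the chaperonins Hspd1 (0.84, SE 0.11) and Hspe1 (0.89, SE 0.14) rose. The respiratory chain rose in 29 of 78 and fell in 3 (median 0.20), with 15 to 19 higher without array 1, 3 or 4 of WT. Atp5g1, a subunit of the ATP synthase ring, had the largest difference of the list (1.21, SE 0.12, adjusted p = 0.000121). The citric acid cycle rose in 7 of 21 and fell in 2 (1 lower without array 1, 3 or 4 of WT), the proteasome in 11 of 43 and 2, nuclear transport in 9 of 22 and 1 (14 higher without array 3 of Pax5 leukemia) and endoplasmic reticulum chaperones in 4 of 21 (0 to 9 higher without array 1, 3 or 4 of WT or array 1 or 5 of Pax5 leukemia) and 2. With the non-B covariate 3 import genes, 1 chaperone and 2 respiratory chain genes were called higher, with 1 of the citric acid cycle, 1 of nuclear transport, 0 of the proteasome and 0 of the endoplasmic reticulum list. The main counts of these lists stand against 13.1% of all genes higher and 16.1% lower.

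Genes of mitosis went the other way. Of 36 measured, 18 fell, none rose and 18 did not pass, with a median of -0.28 and a lowest difference of -0.76, so no member fell 2-fold. Ccnb2, a mitotic cyclin, was at 12.37, 12.20, 12.45 and 12.37 in WT and ran from 11.37 through a median of 11.70 to 11.76 in Pax5 leukemia, below WT on each array (-0.72, SE 0.08, adjusted p = 0.000246). Ccna2 (-0.65, SE 0.07, adjusted p = 0.000206) and the proliferation marker Mki67 (-0.48, SE 0.05, adjusted p = 0.000186) fell similarly, with Mki67 at 12.46, 12.43, 12.53 and 12.41 in WT and a range from 11.87 through a median of 11.98 to 12.12 in Pax5 leukemia. Cdk1, the mitotic kinase, did not pass (-0.05, SE 0.14, adjusted p = 0.831). Under the non-B covariate 11 members were called lower and with the sex covariate 6. Genes of DNA replication showed no common direction, with 4 of 39 higher (2 to 7 higher without array 1, 2 or 4 of WT or array 3 of Pax5 leukemia) and 4 lower, and Pcna (-0.14, SE 0.12, adjusted p = 0.383) did not pass. Mcm2 did not pass either (0.22, SE 0.10, adjusted p = 0.136) but did without array 3 of Pax5 leukemia (adjusted p = 0.0204; over all alternatives 0.0204 to 1). E2f2, an S phase transcription factor, fell (-2.20, SE 0.33, adjusted p = 0.00101).

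Among regulators of the G1 phase, 4 of 18 rose (2 higher without array 1 or 4 of WT) and 6 fell, against 13.1% and 16.1% of all genes. Rb1, the retinoblastoma protein that holds cells in G1, was at 11.14, 11.23, 11.29 and 11.11 in WT and ran from 9.42 through a median of 9.60 to 10.06 in Pax5 leukemia (-1.50, SE 0.13, adjusted p = 4.73e-05). Cdkn1b, which encodes the inhibitor p27, was at 11.38, 11.40, 11.42 and 11.41 in WT and ran from 9.81 through a median of 10.19 to 10.37 in Pax5 leukemia (-1.26, SE 0.10, adjusted p = 4.03e-05), and Cdkn2d, the inhibitor p19, fell as well (-1.21, SE 0.17, adjusted p = 0.000602). Cdk6, a kinase that p19 inhibits, rose, from 11.03, 10.87, 10.91 and 10.89 to a range from 11.24 through a median of 12.15 to 12.55 (1.16, SE 0.22, adjusted p = 0.00399), and so did Cdk4 (0.38, SE 0.06, adjusted p = 0.00106). The D cyclins split: Ccnd3, the D cyclin of pre-B cells, fell (-1.04, SE 0.25, adjusted p = 0.0127), and Ccnd2 rose by 0.78 (SE 0.26, adjusted p = 0.0471), a call that ended without any single WT array or array 2, 3, 4 or 5 of Pax5 leukemia (adjusted p from 0.0596 to 0.133; over all alternatives 0.00689 to 1). Cdkn2a, the INK4A and ARF locus, was at 6.75, 6.73, 6.66 and 6.86 in WT and ran from 6.67 through a median of 6.79 to 9.75 in Pax5 leukemia, high on 1 array and near WT on the others (0.58, SE 0.56, adjusted p = 0.457). The non-B covariate left 4 lower and 1 higher, and the sex covariate 5 and 1.

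Genes mutated or deleted as suppressors in leukemia fell in 7 of 23 and rose in 2 (1 higher without array 1, 3 or 4 of WT or array 4 or 5 of Pax5 leukemia). Btg1, an antiproliferative gene often deleted in precursor B cell leukemia, was at 12.65, 12.48, 12.63 and 12.64 in WT and ran from 10.56 through a median of 10.85 to 11.18 in Pax5 leukemia (-1.73, SE 0.13, adjusted p = 2.63e-05), and Etv6, a transcription factor fused or lost in this disease, rose (0.84, SE 0.08, adjusted p = 0.000107). Chromatin regulators mutated in leukemia fell in 16 of 39 and rose in 3 (1 higher without any single WT array or array 4 of Pax5 leukemia), with lower levels of the histone methyltransferase gene Ezh2 (-0.72, SE 0.11, adjusted p = 0.00127), the acetyltransferase gene Crebbp (-0.54, SE 0.08, adjusted p = 0.00109) and the demethylase gene Kdm6a (-0.83, SE 0.14, adjusted p = 0.00191), which is X-linked. In the non-B covariate fit 2 chromatin regulators were called lower and with the sex covariate 6. Histone genes fell in 14 of 36 and rose in 1: the variant gene H2az2 was at 12.04, 12.01, 12.21 and 12.13 in WT and ran from 10.92 through a median of 11.24 to 11.32 in Pax5 leukemia (-0.93, SE 0.09, adjusted p = 0.000108), and the replication-dependent gene H2bc8 fell (-1.21, SE 0.12, adjusted p = 0.000129). Splicing factors fell in 8 of 36 and rose in 5 (1 to 3 higher without any single WT array or array 2, 4, 5 or 6 of Pax5 leukemia). The main counts of this paragraph stand against 16.1% of all genes lower and 13.1% higher.

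Targets of p53 fell in 6 of 22 and rose in 2 (1 higher without any single WT array or array 2, 4 or 5 of Pax5 leukemia), with a median of 0.08. Over all genes 16.1% were lower and 13.1% higher. Btg2, an antiproliferative gene of B cell precursors, was at 12.16, 12.18, 12.27 and 12.32 in WT and ran from 9.51 through a median of 9.98 to 10.45 in Pax5 leukemia (-2.26, SE 0.16, adjusted p = 1.74e-05). Rrm2b, a ribonucleotide reductase subunit for DNA repair, was at 9.66, 9.99, 9.98 and 9.73 in WT and ran from 7.44 through a median of 7.63 to 7.96 in Pax5 leukemia (-2.17, SE 0.12, adjusted p = 4.45e-06). Mdm2, the ubiquitin ligase of p53, fell with a small spread (-0.80, SE 0.06, adjusted p = 1.88e-05). With the non-B covariate 5 and with the sex covariate 6 members were called lower. Genes of DNA damage signalling and repair rose in 13 of 32 and fell in 3. Apex1, the endonuclease of base excision repair, was at 8.91, 9.09, 9.06 and 8.92 in WT and ran from 10.28 through a median of 10.61 to 11.21 in Pax5 leukemia (1.63, SE 0.16, adjusted p = 0.000117). Parp1 (0.64, SE 0.08), the kinase gene Atr (0.65, SE 0.10) and Brca2 (0.73, SE 0.10) rose, and the helicase gene Wrn fell (-0.87, SE 0.11, adjusted p = 0.000448).

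Early response genes fell in 15 of 25 and rose in 1, with a median of -0.42. Jund, an AP-1 subunit, was at 10.28, 10.23, 10.38 and 10.49 in WT and ran from 8.71 through a median of 9.20 to 9.54 in Pax5 leukemia (-1.20, SE 0.14, adjusted p = 0.000253). Nr4a1, a nuclear receptor induced by antigen receptor signals, was at 8.45, 9.06, 9.27 and 9.60 in WT and ran from 6.68 through a median of 7.12 to 7.80 in Pax5 leukemia (-1.85, SE 0.27, adjusted p = 0.000782). Junb fell (-0.68, SE 0.07, adjusted p = 9.83e-05), and Jun did not pass (-1.33, SE 0.46, adjusted p = 0.0541) but did without array 2 or 6 of Pax5 leukemia (adjusted p from 0.0235 to 0.0409; over all alternatives 0.0141 to 0.929). Fosb fell and was dim in Pax5 leukemia (-1.96, SE 0.14, adjusted p = 1.86e-05). Of 19 genes of the ZFP36, BTG, TOB and Kruppel-like families, which shorten messenger RNA life or restrain growth, 9 fell and none rose, including Zfp36 (-1.77, SE 0.20, adjusted p = 0.000209) and Tob1 (-0.97, SE 0.11, adjusted p = 0.000207). The NF-kB list fell in 8 of 23 and rose in 1 (3 higher without array 1 of Pax5 leukemia). Its feedback inhibitors Nfkbid (-2.07, SE 0.21, adjusted p = 0.000113), Nfkbie (-1.30, SE 0.18, adjusted p = 0.000767) and Tnfaip3 (-1.76, SE 0.27, adjusted p = 0.00107) fell, and the subunit gene Rel fell by 0.71 (SE 0.11, adjusted p = 0.0014). The cytokine gene Tnf was the member that rose, from a dim level (1.74, SE 0.27, adjusted p = 0.00138). Under the non-B covariate 5 early response genes, 5 of the ZFP36 and BTG list and 1 of the NF-kB list were called lower.

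Interferon-stimulated genes rose in 2 of 28 (1 to 4 higher without any single WT array or array 1, 2, 5 or 6 of Pax5 leukemia) and fell in 4 (2 lower without array 2, 3 or 4 of WT), with Irf1 (-0.78, SE 0.10, adjusted p = 0.000435) and Rsad2 (-2.50, SE 0.27, adjusted p = 0.000185, dim in Pax5 leukemia) lower and the immunoproteasome gene Psmb8 higher (0.80, SE 0.18, adjusted p = 0.00863). RAS-ERK feedback genes rose in 3 of 23 (5 higher without array 1 or 4 of Pax5 leukemia) and fell in 2 (1 lower without any single WT array or array 3, 4 or 5 of Pax5 leukemia): Spred1 (1.26, SE 0.24, adjusted p = 0.00383) and Spry1 (0.95, SE 0.24, adjusted p = 0.0143) rose and Spry2 fell to a dim level (-1.01, SE 0.09, adjusted p = 4.98e-05). TGF-beta and SMAD genes rose in 5 of 20 (1 to 3 without any single WT array or array 4 or 5 of Pax5 leukemia) and fell in 4, including Skil, a SMAD repressor (-1.22, SE 0.17, adjusted p = 0.000632), and Smad4 (-0.47, SE 0.08, adjusted p = 0.00174). Glucocorticoid receptor genes rose in 4 of 16 (0 to 2 higher without any single WT array or array 2, 3, 4 or 5 of Pax5 leukemia) and fell in 4 (2 lower without array 3 or 4 of WT), and Nr3c1, the receptor, did not pass (-0.23, SE 0.13, adjusted p = 0.222). Genes of the oxidative stress response rose in 4 of 20 and fell in 1. Among them Hmox1, the heme oxygenase that macrophages express, rose (1.90, SE 0.32, adjusted p = 0.00192) and the glutathione synthesis gene Gclc fell (-1.04, SE 0.25, adjusted p = 0.011). The main counts of this paragraph stand against 13.1% of all genes higher and 16.1% lower.

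Lysosome and autophagy genes moved both ways. Of 28 measured 5 rose and 8 fell, against 13.1% of all genes higher and 16.1% lower. The lysosomal enzymes cathepsin D (Ctsd, 1.47, SE 0.20, adjusted p = 0.000512) and hexosaminidase A (Hexa, 1.35, SE 0.14, adjusted p = 0.000152) rose. Map1lc3b, the autophagosome protein LC3B, was at 11.44, 11.53, 11.50 and 11.46 in WT and ran from 10.23 through a median of 10.47 to 10.59 in Pax5 leukemia (-1.03, SE 0.07, adjusted p = 1.88e-05). The autophagy receptor gene Sqstm1 (-0.81, SE 0.11, adjusted p = 0.000576) and Tfeb, the transcription factor of lysosomal genes (-0.86, SE 0.15, adjusted p = 0.00271), fell as well. The higher count was 9 without array 1 of Pax5 leukemia. In the non-B covariate fit 2 members were called higher and 5 lower.

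MicroRNA genes were mostly dim: 246 of 302 lay under the dim level in both groups, 11 rose and 49 fell, and the lower count was 25 to 31 without array 6 of Pax5 leukemia or array 1, 3 or 4 of WT. The 49 of 302 lower are close to the 16.1% of all genes. Median centring gave 15 higher and 33 lower, cyclic loess 16 and 32, the non-B covariate 3 and 2, and the sex covariate 6 and 34. Their probes read the hairpin or its precursor and not the mature RNA. Mir687, given below, had the smallest p and the largest difference in size of the list. The cluster hosted by Mir17hg, a MYC target in lymphoid cells, was picked with its values in view. Mature forms of its called hairpins are shown from RefSeq (270 of 302 genes matched), with the seed, bases 2 to 8, in capitals.
mmu-miR-17-5p: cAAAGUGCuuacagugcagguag
mmu-miR-18a-5p: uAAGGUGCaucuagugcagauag
mmu-miR-19a-3p: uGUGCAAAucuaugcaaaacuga
mmu-miR-19b-3p: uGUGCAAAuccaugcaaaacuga
By seed, miR-19a and miR-19b share GUGCAAA, and miR-17 and miR-18a have seeds of their own among these. The host transcript Mir17hg was at 6.53, 6.48, 6.71 and 6.51 in WT and ran from 7.85 through a median of 8.32 to 8.58 in Pax5 leukemia (1.70, SE 0.14, adjusted p = 3.51e-05). Mir18, the hairpin of miR-18a, was at 5.75, 5.17, 5.47 and 5.62 in WT and ran from 6.98 through a median of 7.49 to 8.78 in Pax5 leukemia, higher on every array (2.16, SE 0.33, adjusted p = 0.00116). The other hairpins of the cluster did not follow it as one: Mir19a rose by 0.77 (SE 0.22, adjusted p = 0.0261), Mir17 fell by 0.41 (SE 0.08, adjusted p = 0.00352) and Mir19b-1 fell by 0.19 (SE 0.06, adjusted p = 0.0375), all 3 dim in both groups. The Mir19a call ended without array 1, 3 or 4 of WT (adjusted p from 0.0591 to 0.0739; over all alternatives 0.00818 to 1), and the Mir19b-1 call without array 1, 3 or 4 of WT or array 3, 4, 5 or 6 of Pax5 leukemia (adjusted p from 0.051 to 0.111; over all alternatives 0.00906 to 1). With the non-B covariate Mir18 was not called (2.29, adjusted p = 0.0737; over all alternatives 0.00027 to 0.0737). With the sex covariate, which rests on array 2 of Pax5 leukemia, its difference was 1.98.

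Outside the cluster, the rule named Mir687, which fell to a dim level (-2.19, SE 0.13, adjusted p = 6.42e-06), and Mir30e, which fell (-1.35, SE 0.13, adjusted p = 7.3e-05, dim in Pax5 leukemia). Mature forms of these hairpins are shown as examples of hairpins with lower signal in Pax5 leukemia.
mmu-miR-687: cUAUCCUGgaaugcagcaauga
mmu-miR-30e-5p: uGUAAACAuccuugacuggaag
Mir687 was at 7.56, 7.85, 7.78 and 7.56 in WT and ran from 5.22 through a median of 5.49 to 5.86 in Pax5 leukemia, and Mir30e at 6.87, 6.64, 7.29 and 7.07 against a range from 5.45 through a median of 5.62 to 5.87. Mir6516 (0.88, SE 0.12, adjusted p = 0.000535) and Mir677 (0.74, SE 0.11, adjusted p = 0.000998, dim in both groups) rose.

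Markers of cells other than B cells were counted apart. The 244 measured genes on 14 such lists included 62 of the 621 genes at least 2-fold higher and 35 of the 441 at least 2-fold lower. Marrow macrophage markers rose in 14 of 18, with a median of 1.99. Their summed linear signal was 1910 to 2060 in WT and 6440 to 16000 in Pax5 leukemia, and 15 of 18 were dim in WT. Vcam1, which macrophages and stroma carry, was at 6.77, 6.78, 6.58 and 6.63 in WT and ran from 9.99 through a median of 10.88 to 11.17 in Pax5 leukemia (4.05, SE 0.21, adjusted p = 3.35e-06), and the complement gene C1qb (3.65, SE 0.36, adjusted p = 0.000108) and the mannose receptor gene Mrc1 (2.75, SE 0.15, adjusted p = 4.45e-06) rose from dim levels. Megakaryocyte and platelet markers rose in 9 of 15 (summed signal 2630 to 2830 in WT and 8850 to 30900 in Pax5 leukemia), with the platelet receptor gene Gp9 at 7.17, 7.24, 7.19 and 7.41 in WT and a range from 8.74 through a median of 9.56 to 11.28 in Pax5 leukemia (2.63, SE 0.49, adjusted p = 0.00346). Endothelial markers rose in 17 of 21 (4910 to 5340 and 6220 to 11400), among them the junction gene Cdh5 (1.09, SE 0.22, adjusted p = 0.00571) and the vascular gene Egfl7 (1.96, SE 0.22, adjusted p = 0.000206). Stromal and osteolineage markers rose in 18 of 24 (2240 to 2420 and 7380 to 26900), with Cxcl12, the chemokine of the stromal niche, higher (2.11, SE 0.38, adjusted p = 0.00272), as was the leptin receptor gene Lepr (1.74, SE 0.16, adjusted p = 6.07e-05), both dim in WT. No member of these 4 lists fell. With the sex covariate 13 macrophage, 3 megakaryocyte, 14 endothelial and 19 stromal markers were called higher, and 1 megakaryocyte marker lower. The non-B covariate holds these 4 lists, so its counts are not used for them.

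NK cell markers were the list with the largest share of lower members, 16 of 19, and a median of -1.97. Ncr1, which encodes the NK receptor NKp46, was at 10.03, 9.42, 9.31 and 9.11 in WT and ran from 5.43 through a median of 5.45 to 5.59 in Pax5 leukemia (-3.99, SE 0.15, adjusted p = 3.61e-07), and the granzyme gene Gzma was at 9.22, 8.77, 8.86 and 8.72 in WT and ran from 5.14 through a median of 5.51 to 5.94 in Pax5 leukemia (-3.37, SE 0.15, adjusted p = 9.36e-07). The summed signal of the list was 6810 to 12100 in WT and 2650 to 5230 in Pax5 leukemia, where 15 of 19 members were dim, Ncr1, Gzma and Eomes included. Whether these markers take part in the B lineage differences was not tested. Erythroid markers fell in 12 of 17 and rose in none, with a summed signal of 7990 to 10800 in WT and 3750 to 5790 in Pax5 leukemia. Klf1, the erythroid master factor, was dim in both groups (-0.45, SE 0.10, adjusted p = 0.00667), and the membrane protein gene Ermap was dim in Pax5 leukemia (-1.05, SE 0.10, adjusted p = 7.98e-05). The sex covariate left 16 NK and 10 erythroid markers lower, and the non-B covariate, which holds the erythroid but not the NK list, 13 NK markers.

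Plasmacytoid dendritic cell markers depended on 1 array. Of 15 measured 6 fell and none rose, and 11 fell without array 3 of Pax5 leukemia. Siglech, their sialic acid receptor, was at 11.43, 11.18, 11.04 and 11.23 in WT and ran from 6.02 through a median of 7.76 to 12.56 in Pax5 leukemia, with the top value on array 3. The difference was -3.02 with all arrays (SE 1.12, adjusted p = 0.0687) and -3.89 without array 3 (adjusted p = 0.00123; over all alternatives 0.00123 to 0.525). The chemokine receptor gene Ccr9 followed the same split, with -2.01 (SE 1.02, adjusted p = 0.163) and -2.88 without array 3 (adjusted p = 0.00036; over all alternatives 0.00036 to 1). The level of the list, the mean log2 value of its genes, was 10.17 on array 3, 7.91 to 8.20 on the other 5 leukemia arrays and 9.71 to 9.97 in WT. On the same array the level of B lineage transcription factors was 9.51, the lowest of the 6 leukemias, and the part of these markers in that level was not tested.

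Neutrophil markers varied within both groups. Their level was 9.14 and 9.02 on WT arrays 1 and 2 and 7.06 and 7.02 on arrays 3 and 4, and in Pax5 leukemia it was 10.98, 10.69 and 9.19 on arrays 3, 6 and 5 against 7.07 to 7.49 on the others. Of 20 markers 1 rose, Mmp9, which encodes a matrix protease (2.33, SE 0.70, adjusted p = 0.0317), and its call ended without array 3 or 4 of WT or array 2, 3 or 6 of Pax5 leukemia (adjusted p from 0.0533 to 0.101; over all alternatives 0.0176 to 0.824). S100a8, an abundant neutrophil protein, was at 10.65, 10.72, 7.57 and 7.05 in WT and ran from 7.79 through a median of 10.53 to 12.83 in Pax5 leukemia (1.59, SE 1.22, adjusted p = 0.347). The main counts of this paragraph stand against 13.1% of all genes higher and 16.1% lower. Monocyte markers rose in 6 of 14 and fell in 1 (3 higher without array 4 of WT). T cell markers fell in 6 of 18, and 11 of 18 were dim in both groups. Plasma cell markers fell in 6 of 14 and rose in none (2 higher without array 1 of Pax5 leukemia). Those lower included the heavy chain gene Igha (-1.99, SE 0.39, adjusted p = 0.00434), Slamf7 (-2.19, SE 0.45, adjusted p = 0.00551) and Irf4, counted above as a B lineage factor. The joining chain gene Jchain, a defining marker, had the highest difference of the list without passing (2.14, SE 0.85, adjusted p = 0.0864). Conventional dendritic cell markers rose in 1 of 14 (2 higher without array 1 of Pax5 leukemia) and fell in 2 (1 to 6 lower without array 1, 3 or 4 of WT or array 2, 3, 5 or 6 of Pax5 leukemia), and mast cell, basophil and eosinophil markers rose in 1 of 18 (2 higher without array 2 of Pax5 leukemia) and fell in 4 (2 lower without any single WT array or array 2 or 5 of Pax5 leukemia), with 14 of 18 dim in both groups. Median centring and cyclic loess each gave 1 lower member. Stem and progenitor markers rose in 6 of 20 and fell in 6 (2 to 3 lower without array 1, 3 or 4 of WT, 3 with median centring and 2 with cyclic loess), with Cd34 higher from a dim level (1.90, SE 0.38, adjusted p = 0.00486) and the stem cell factor receptor gene Kit higher (0.91, SE 0.22, adjusted p = 0.0121).

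**Figure D4:**
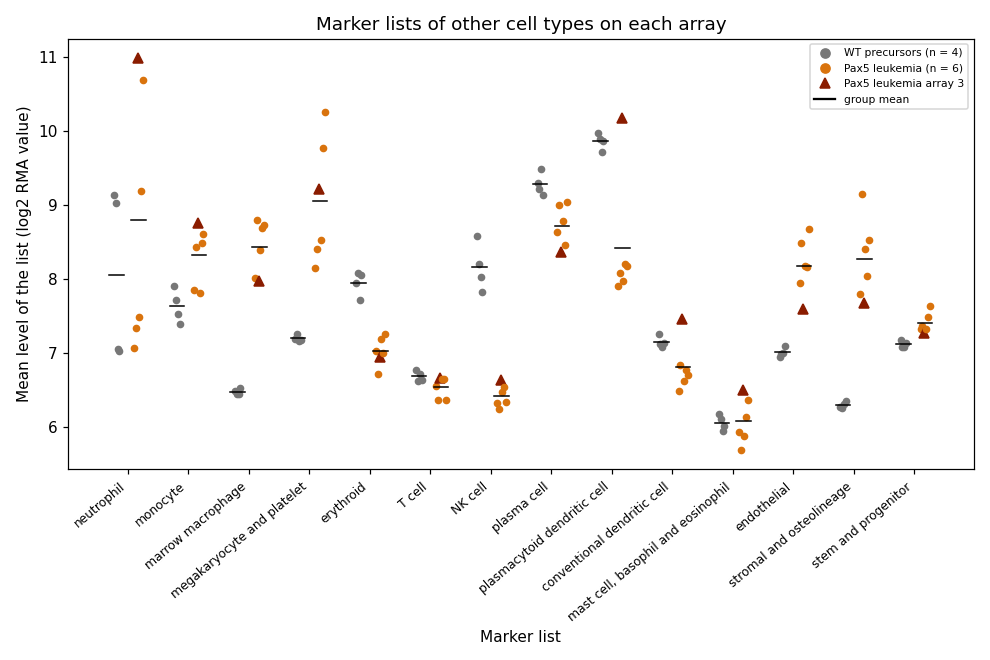
Mean log2 level of each of the 14 marker lists of other cell types on each array, with WT precursors as grey circles and Pax5 leukemias as orange circles (array 3 as a filled triangle). Macrophage, megakaryocyte, endothelial and stromal markers are higher on all 6 leukemia arrays, NK and erythroid markers are lower, and plasmacytoid dendritic cell markers reach the WT level on array 3 alone.

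Some of the largest changes among genes bright in both groups lay outside these lists. Smyd2, a lysine methyltransferase, was at 7.10, 7.19, 7.23 and 7.11 in WT and ran from 9.30 through a median of 9.60 to 10.13 in Pax5 leukemia (2.52, SE 0.17, adjusted p = 1.68e-05). With the non-B covariate, whose effect cannot be fully told apart from that of the groups, the Smyd2 difference was 2.42. With the sex covariate, which sets array 2 of Pax5 leukemia alone against WT, the difference was 2.97. Adgrg3, an adhesion receptor of myeloid cells, was at 8.92, 8.44, 8.41 and 8.65 in WT and ran from 11.06 through a median of 11.58 to 12.19 in Pax5 leukemia (3.00, SE 0.20, adjusted p = 1.68e-05). Pik3r6, a regulatory subunit of PI3K gamma, rose (2.55, SE 0.18, adjusted p = 1.88e-05), as did Igfbp4, an inhibitor of insulin-like growth factors (2.41, SE 0.26, adjusted p = 0.00016). In the other direction Nuak1, an AMPK-related kinase, was at 10.61, 10.43, 10.60 and 10.52 in WT and ran from 6.35 through a median of 7.14 to 7.63 in Pax5 leukemia (-3.44, SE 0.25, adjusted p = 2.17e-05), and Adam19, a membrane metalloprotease, was at 11.29, 11.28, 11.16 and 11.27 in WT and ran from 7.32 through a median of 8.02 to 8.61 in Pax5 leukemia (-3.27, SE 0.28, adjusted p = 4.99e-05). The interferon-induced membrane proteins Ifitm1 (3.69, SE 0.43, adjusted p = 0.000242) and Ifitm3 (3.62, SE 0.28, adjusted p = 3.15e-05) rose while the list of interferon-stimulated genes held 2 higher and 4 lower members, and both are also found on cells other than B cells. Array levels of Ifitm3 were 8.79, 8.57, 7.63 and 7.47 in WT and ran from 11.16 through a median of 11.77 to 12.07 in Pax5 leukemia.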

How the data were processed

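Expression was measured on 16 arrays, of which 10 were used here (6 Pax5 leukemias and 4 WT). The values are log2 expression as deposited by the authors. The submitters' processing notes name RMA and oligo, which give background-corrected, quantile-normalized log2 values per probe set, and no version or genome build of the array is given in the sources used here. Precision is limited by the number of arrays. Among 35556 probe sets, 21789 named 1 gene in the platform annotation, 1621 named several and 12146 none, and 91 of the first had no current gene record. One probe set a gene, the one with the highest mean over the 10 arrays, left 19938 genes, of which 999 had more than 1 probe set. Groups were compared with limma 3.58.1 (lmFit and eBayes, R 4.3.3), with p-values adjusted by Benjamini and Hochberg over all genes. The code of the fit was first run on simulated arrays with independent noise and the same spread of a gene in both groups. The spread of these arrays differs between the groups, so that run gives no error rate for these data. The smallest two-sided p of an exact permutation of 6 against 4 arrays is 0.00952.

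The members and lists were chosen with earlier results of these data known. A rule named 509 genes: control genes, the 15 bright called genes with the largest difference each way, the first 3 members of each list and up to 6 called members with the smallest p, and up to 6 called microRNA genes. Besides Jchain, which the counts of described genes leave out, the text describes 212 of them, picked with their values in view. It also describes 5 genes outside the rule (Mir17, Mir19a, Mir19b-1, Nop2 and Rrn3). This choice favoured stable calls: leaving out 1 array ended the call of 5 of the 181 described rule-named genes that were called, of 64 of all 421 such genes and of 2126 of all 5821 called genes. Alternatives covered scaling, dim and repeated probe sets, array weights, all 16 arrays, a 1.5-fold minimum, variance moderation, the replicate block, covariates and each array left out.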

Additional observations from a re-analysis of the deposited data

Results flagged for a closer look

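Of 440 groups of arrays tested (each gene but Jchain, or list level, of the text in each group), 29 had 1 array far from the others by Dixon's criterion. Chance flags about 1 in 20 groups. All values are log2 levels. Array 1 of Pax5 leukemia was the highest of its group for Brca2 (9.35), Enpep (6.94), Fcmr (8.81), Kdm6a (10.22), Lgr5 (8.76) and the lowest for Ctsd (10.93). Array 2 of Pax5 leukemia was the highest of its group for Xist (9.96) and the lowest for Eif2s3y (4.59). Array 3 of Pax5 leukemia was the highest of its group for Ccr9 (12.02), Nfkbid (8.85), plasmacytoid dendritic cell markers (10.17) and the lowest for Bak1 (9.92), Pax5 (7.52), Pdk1 (8.85), Shmt1 (8.80). Array 4 of Pax5 leukemia was the lowest for Snord87 (7.69). Array 5 of Pax5 leukemia was the highest of its group for Fcer2a (10.32). Array 6 of Pax5 leukemia was the highest of its group for Cdkn2a (9.75). Array 2 of WT was the highest of its group for Myc (9.87), Osm (7.26), S1pr1 (9.71), Wrn (9.81) and the lowest for Btg1 (12.48). Array 3 of WT was the highest of its group for Ezh2 (12.56), Mcm2 (10.96), Mrpl49 (10.82) and the lowest for Adam19 (11.16). Array 4 of WT was the lowest for Cd81 (11.28), Kit (7.23).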

How the results depend on the processing

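Counts are given as genes called, higher, lower and at least 2-fold apart, against 5821, 2612, 3209 and 1062. With the non-B covariate they were 1299, 556, 743 and 624, and 139 genes called in the comparison had the other sign. With the sex covariate, added after seeing the data, 3277, 1668 and 1609 were called, higher and lower, and with a minimum of 1.5-fold the counts were 527, 269, 258 and 497. With the replicate number as a block 3216, 1566 and 1650 were called, higher and lower. Arrays with the same number deviated together in 1 of 4 pairs (r from -0.28 to 0.20), so the numbers do not pair the arrays. Leaving out 1 array gave 4107 to 6928 genes called, 1883 to 2839 higher, 2211 to 4089 lower and 918 to 1190 at least 2-fold apart. Of 217 genes of the text (Jchain left out), 186 were called, and 2 of these changed sign. Sign changes of genes called in neither fit were not counted. Itgb3 was at -0.27 with the non-B covariate, which holds it, and Eif2s3y, which defines the sex covariate, at -0.01 with the latter. The non-B covariate ended the call of 91 of the 186 called genes besides Itgb3, and the 1.5-fold minimum of 93. The causes were not tested. No further fit on leukemia arrays without the Y-linked signal was run. Array 2 is the only such array, and its Xist level (9.96) lay below every WT array. Dim probe sets bound the size of a difference poorly, and 1287 called genes were dim in both groups.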
